A study of Mus musculus with 19 samples.

Results

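The complement genes described here were C1qa, C1qb, C1qc, C3, C4b, Cfb, C3ar1 and C5ar1, that is 3 subunits of C1q, 3 further components and 2 receptors. They were chosen by name as complement components and receptors, with earlier results of these data known. Each of the 8 was found among the 27179 genes of the expression table. All 8 also passed the filter on low values (RPKM, reads scaled to gene length and library size, of at least 0.5 in at least 4 mice), which left 14186 genes for testing.

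PolyA RNA of splenocytes was sequenced from 19 immunized mice of the FCG model, in which gonadal type is separated from the sex chromosome complement. All mice had been immunized with heat-killed Streptococcus pneumoniae (HKSP), and spleens were taken 7 days later. The comparisons ask whether expression differs between XX and XY mice with the same gonads, and between mice with testes and mice with ovaries. Library sizes recovered from the deposited values were 11263753 (XYF F6) to 19962022 (XYM 13) reads.

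The mice had C57BL/6J mothers and fathers of the FCG line. In such fathers the testis-determining gene Sry is missing from the Y chromosome and is carried as a transgene on chromosome 3 instead. XXF mice (n = 5) were XX without the transgene and had ovaries, and XYF mice (n = 4) were XY with the Sry-deleted Y chromosome, also with ovaries. XXM mice (n = 5) were XX with the Sry transgene and had testes, and XYM mice (n = 5) were XY with the Sry-deleted Y chromosome and the Sry transgene, also with testes. The age of the sequenced mice was not found, and all groups were immunized, so the values have no unimmunized reference. Testes and the Sry transgene came together in every male, and their parts in a difference between males and females cannot be told apart. The running numbers in the sample titles keep each group together, so any order of handling and the group cannot be told apart either. The X-linked gene Tlr7, an RNA sensor examined after its values were seen, was lower in XX than in XY mice over both gonadal sexes (log2 difference −1.27, SE 0.18, limma adjusted p = 0.00068, with adjusted p from 5.37e-05 to 0.00224 over the alternatives). It was lower in males by −1.61 (SE 0.25, adjusted p = 0.00462), from 3.64e-05 to 0.064 over the alternatives, and was called in all of them. In females it was lower by −0.94 (SE 0.26, adjusted p = 0.0953), with adjusted p from 0.0401 to 0.32, and this call was lost in 18 of 30 alternatives. Among these were those without XXF F2, F3, F4 or F5 (0.171, 0.139, 0.141 and 0.187), XYF F6 or F9 (0.154 and 0.32), XXM 5, 6, 7 or 8 (0.123, 0.116, 0.102 and 0.114), and XYM 13, 15 or 16 (0.115, 0.107 and 0.104).

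Complement is a cascade of plasma and cell-surface proteins that marks microbes, immune complexes and dying cells for uptake. C1q starts the classical pathway on bound antibody, C4 and factor B take part in the enzymes that cleave C3, and the small fragments released from C3 and C5 act on myeloid cells through their receptors. Much of the circulating complement comes from the liver, whereas C1q comes largely from macrophages and dendritic cells, and in the spleen complement fragments bound to antigen are held by B cells and follicular dendritic cells through complement receptors.

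Among the 8 genes, the C1q subunits were lower in males than in females. C4b was low throughout and highest in the XYF mice, and C3 and C5ar1 were highest in the same pair of XY mice, XYF F9 and XYM 9. Levels are given as log2(RPKM + 1), the scale of the deposited values, and differences are differences of group means on that scale, which understates the change of low genes. A gene was called different when the Benjamini-Hochberg adjusted p of limma over the 14186 genes was under 0.1 and the difference exceeded 1.5-fold on that scale. Where groups are said not to overlap, no share over all genes is given, so this describes the named gene only. All comparisons drew on the same 19 mice and 4 group means, so they are not independent of each other. P-values measure the spread between these mice.

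**Figure D1:**
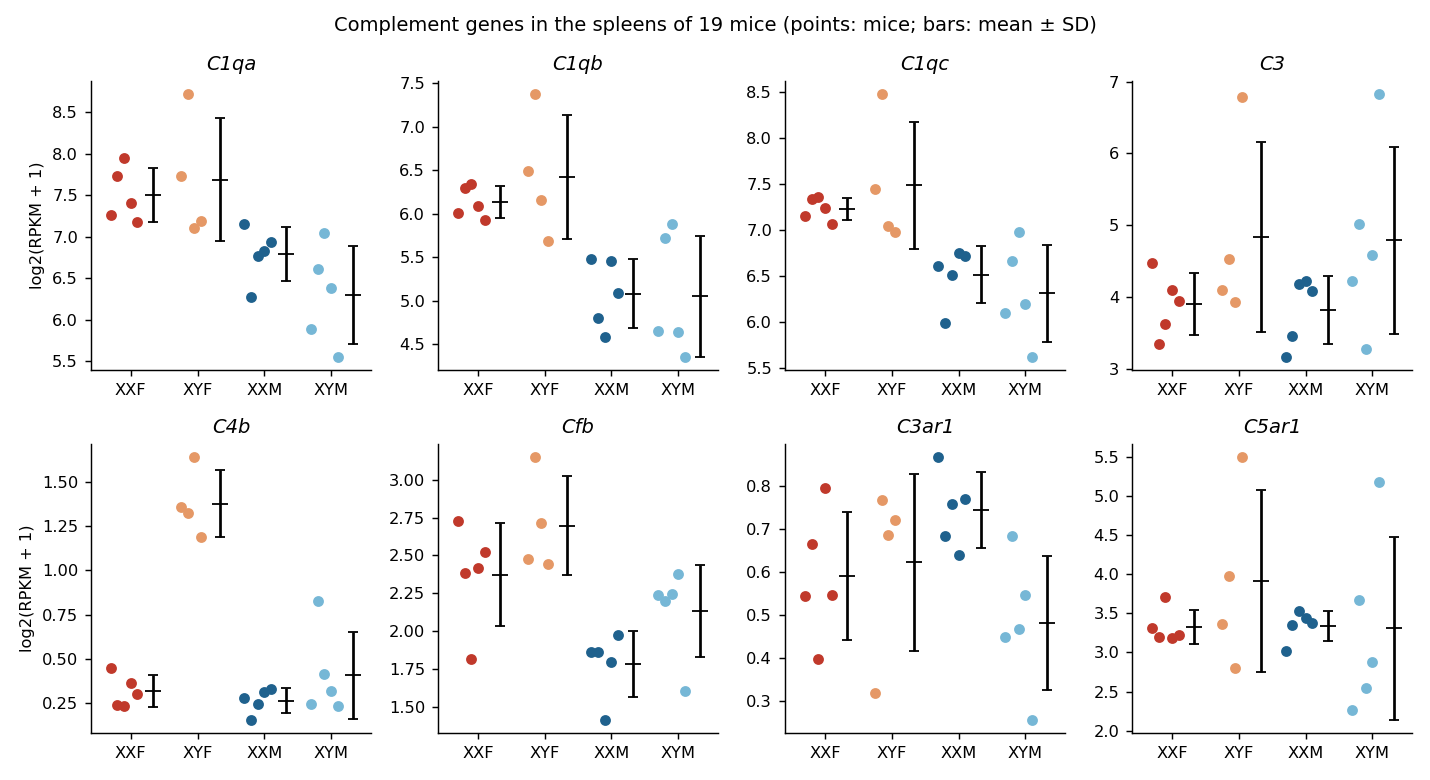
Level of each of the 8 complement genes, as log2(RPKM + 1), in every mouse (points) with the mean ± SD of each group (black bars) for XXF (n = 5), XYF (n = 4), XXM (n = 5) and XYM (n = 5) mice. C1qc in the 10 males lies below all 9 females, C4b in the 4 XYF mice lies above all other mice, and XYF F9 and XYM 9 stand highest for C3 and C5ar1. Each panel has its own vertical scale.

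C1qa, C1qb and C1qc encode the A, B and C chains that assemble into C1q, the recognition protein of the classical pathway. The genes (Entrez 12259, 12260 and 12262) lie side by side on chromosome 4 of GRCm38, C1qb at 136880126 to 136886200, C1qc at 136889801 to 136892936 and C1qa at 136895916 to 136898844. Because the 3 genes moved together from mouse to mouse, the promoters found for them in the RefSeq table of GRCm38.p6 (5 of the 8 complement genes had an entry, C1qb and C1qc among them) are shown, each from 250 bases before to 50 bases after the start site, 5′ to 3′ on the minus strand. Capitals mark the letters GAGGAA, or TTCCTC where they lie on the opposite strand, a core bound by the myeloid factor PU.1.
C1qb, chr4:136886151-136886450: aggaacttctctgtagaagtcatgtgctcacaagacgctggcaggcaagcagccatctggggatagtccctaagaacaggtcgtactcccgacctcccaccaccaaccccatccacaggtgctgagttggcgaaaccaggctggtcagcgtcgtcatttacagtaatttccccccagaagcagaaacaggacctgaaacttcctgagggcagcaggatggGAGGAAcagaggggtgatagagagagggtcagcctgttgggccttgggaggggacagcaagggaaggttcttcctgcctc
C1qc, chr4:136892865-136893164: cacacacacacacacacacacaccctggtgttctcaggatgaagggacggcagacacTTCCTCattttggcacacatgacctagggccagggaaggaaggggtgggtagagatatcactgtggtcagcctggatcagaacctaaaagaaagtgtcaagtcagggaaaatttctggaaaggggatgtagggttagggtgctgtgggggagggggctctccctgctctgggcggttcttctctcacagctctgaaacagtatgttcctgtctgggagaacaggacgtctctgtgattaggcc
The match begins at position −30 from the start site in C1qb and at −193 in C1qc. These letters, searched on both strands, occur in 28.3% of the 32851 promoters of the table, and no match was found in the windows of C3, C3ar1 and C5ar1. The interferon-stimulated response element (in 3.44% of promoters) and the gamma-activated site (in 8.30%) had 0 matches in the 5 windows. A match describes the letters and does not show binding.

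C1qa was the most abundant of the 8 genes, with a mean of 148 RPKM over the 19 mice, followed by C1qc with 127 RPKM and C1qb with 56.4 RPKM. In log2, C1qa was at 7.26, 7.73, 7.94, 7.40 and 7.18 in XXF F1 to F5 and at 7.72, 8.72, 7.11 and 7.19 in XYF F6 to F9. In males it was at 7.15, 6.27, 6.77, 6.82 and 6.93 in XXM 2, 5, 6, 7 and 8, and at 5.89, 6.61, 7.04, 6.38 and 5.55 in XYM 12, 13, 15, 16 and 9. XYF F7 stood above all other mice, and 9 of 10 males lay below every female, with only XXM 2 overlapping the lowest females. C1qb, which pairs with the A chain, was at 6.02, 6.30, 6.34, 6.09 and 5.93 in XXF F1 to F5 and at 6.49, 7.38, 6.16 and 5.68 in XYF F6 to F9. In XXM 2, 5, 6, 7 and 8 it was at 5.48, 4.80, 4.59, 5.46 and 5.08, and in XYM 12, 13, 15, 16 and 9 at 4.66, 5.72, 5.89, 4.64 and 4.36. XYF F7 was again the highest mouse, and 8 of 10 males lay below every female. C1qc was at 7.15, 7.34, 7.36, 7.24 and 7.06 in XXF F1 to F5 and at 7.45, 8.48, 7.04 and 6.98 in XYF F6 to F9. For the males the C1qc values were 6.61, 5.99, 6.52, 6.76 and 6.72 in XXM 2, 5, 6, 7 and 8, and 6.10, 6.66, 6.98, 6.20 and 5.62 in XYM 12, 13, 15, 16 and 9. The sexes did not overlap for C1qc, although XYM 15 and XYF F9 were both at 125 RPKM.

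Against females, all 3 subunits were lower in males, C1qa by a log2 difference of −1.05 (SE 0.22, limma adjusted p = 0.00235), C1qb by −1.21 (SE 0.23, adjusted p = 0.00117) and C1qc by −0.94 (SE 0.19, adjusted p = 0.00211). Mean RPKM was 2.10-fold higher in females for C1qa (204 against 97.2), 2.31-fold higher for C1qb (80.4 against 34.7) and 1.95-fold higher for C1qc (170 against 87.5). These were the 3 of 8 complement genes called lower in males, beside 761 of 14186 genes (5.36%) called lower in males over the whole table. The 3 genes lie side by side and varied together, so they are not 3 independent results. As the 8 genes were chosen with earlier results of these data known, this count is a description. Limma called 0 of the 8 higher in males, against 1.96% of all genes, as did limma-voom and array weights, while 5 of 8 passed an unadjusted p of 0.05, all of them lower, and 41.7% of all genes did. C4b, 1 of these 5, passed the filter on low values only through mice in which it was high, as described below. The subunits kept these calls when any mouse was left out, with log2 differences from −1.15 to −0.88 for C1qa, −1.34 to −1.06 for C1qb and −1.03 to −0.78 for C1qc, the smallest in each case without XYF F7. Adjusted p ran from 0.00111 to 0.00606, from 0.000541 to 0.00325 and from 0.000982 to 0.00501 over all alternatives.

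Between XX and XY mice the C1q subunits overlapped in both gonadal sexes. In females the log2 differences, XXF minus XYF, were −0.18 (SE 0.32) for C1qa, −0.29 (SE 0.33) for C1qb and −0.26 (SE 0.28) for C1qc, with adjusted p of 0.773, 0.635 and 0.622. Without XYF F7 the direction turned for each of them, to 0.16, 0.024 and 0.074. In males, XXM minus XYM, they were 0.50 (SE 0.30, adjusted p = 0.277), 0.031 (SE 0.31, adjusted p = 0.956) and 0.20 (SE 0.26, adjusted p = 0.622). Ordered by mean, C1qa ran from XYF (7.68 ± 0.74, SD) through XXF (7.50 ± 0.32) and XXM (6.79 ± 0.32) to XYM (6.29 ± 0.59), with XYF and XXF, and XXM and XYM, within their spread. C1qb and C1qc had the same order, with means of 6.43, 6.14, 5.08 and 5.05 and of 7.49, 7.23, 6.52 and 6.31.

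**Figure D2:**
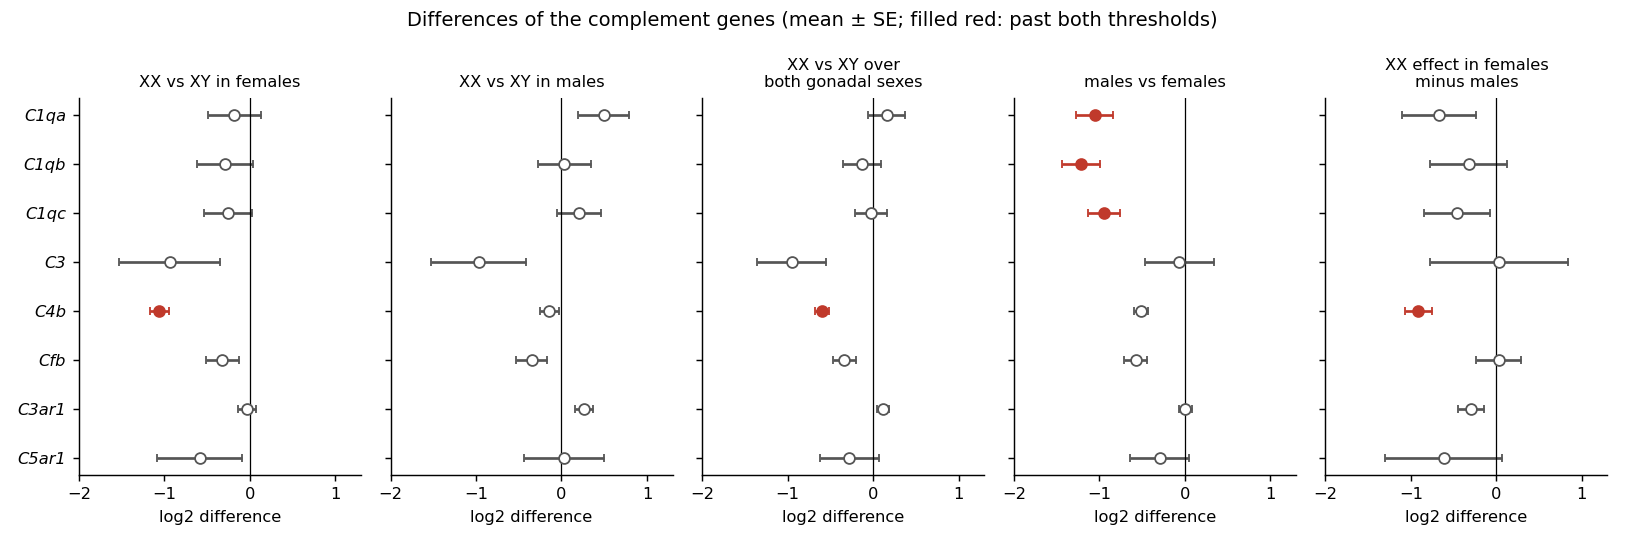
Log2 difference (points) with its standard error (bars) for each complement gene in the 5 comparisons. Filled red points passed an adjusted p of 0.1 and a difference of 1.5-fold. The 3 C1q subunits passed in males against females, and C4b in XX against XY females, over both gonadal sexes and in the difference between them.

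On values the 3 subunits varied together among the 19 mice more closely than any other pair of the 8 genes. Pearson r was 0.969 for C1qa and C1qc, 0.954 for C1qb and C1qc and 0.919 for C1qa and C1qb (Spearman rho 0.954, 0.949 and 0.898), r and rho each with a permutation p of 1e-05, the smallest that 100000 draws can give, and an adjusted p of 9e-05 over 28 pairs. On deviations from the group means r was 0.948, 0.899 and 0.870 (permutation p 1e-05, 0.00015 and 0.00011, adjusted p 0.00028, 0.0014 and 0.0014), and rho was 0.898, 0.881 and 0.825 (permutation p 1e-05, 0.00024 and 0.00039, adjusted p 0.00028, 0.00336 and 0.00364). Without the 2 mice farthest from the median of the x axis r was 0.937, 0.931 and 0.862. Beyond the 8 genes, the mean of the 3 subunits was most like Nr1h3 (r = 0.931, rho = 0.947) and C6 (r = 0.930, rho = 0.918) among all tested genes over the 19 mice, given as a description.

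In bulk samples fewer cells of a type and less RNA per cell cannot be told apart. Red pulp macrophages, which clear aged red cells, are a main C1q-producing cell of the spleen, and 11 of the 12 genes on their marker list were tested (Clec4f, a liver macrophage gene, was not). All 11 had negative differences in males against females, with a median of −0.50, and 3 were called lower (Cd5l, Fcgr1 and Vcam1), beside 5.36% of all genes. This count became 6 without XYF F8, 4 without XXF F5, XYF F9, XXM 7, XXM 8, XYM 12 or XYM 15, and 2 without XXF F4, XYF F7, XXM 5, XXM 6 or XYM 9 or with array weights. Their summed level was 756, 780, 740, 844 and 684 RPKM in XXF F1 to F5, 811, 1423, 599 and 589 RPKM in XYF F6 to F9, 586, 403, 539, 1018 and 689 RPKM in XXM 2, 5, 6, 7 and 8, and 483, 518, 518, 491 and 340 RPKM in XYM 12, 13, 15, 16 and 9. XYF F7, the highest mouse for C1q, was also the highest for this sum, and XYM 9, the lowest for C1q, the lowest. Other mice did not follow this order. XXM 7 had a higher sum (1018 RPKM) than every XXF mouse, yet its C1qa, C1qb and C1qc levels lay below every female. XXM 8 (689 RPKM) exceeded XYF F8 and XYF F9 in the sum, with lower levels of all 3 subunits. Hmox1, the heme-degrading enzyme, was the most abundant gene (39.8% of the sum), and no marker was at 0 in every mouse. Other cell types moved with gonadal sex as well. T cell markers were called lower in males for 7 of 8 genes (summed 590 to 1653 RPKM in females, 367 to 764 RPKM in males; most abundant Trac), and for 8 without XYM 16. Erythroid markers were called lower for 7 of 7, or 6 without XXF F3, XYF F6, XYF F9, XXM 5, XYM 12 or XYM 16. Their sums were 11630 to 44534 RPKM in females and 1395 to 13507 RPKM in males, with Hbb-bs the most abundant. The methods of the paper include a lysis of red blood cells, so these sums describe what was left after that step. B cell markers had positive differences for 8 of 8 genes, with a median of 0.64, and 6 were called higher in males (1.96% of all genes were). Their sums were 1356 to 3023 RPKM in females and 2293 to 4375 RPKM in males, with Cd79b the most abundant. The part of any of these cell types in the C1q difference was not tested.

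C4b encodes complement C4, whose larger fragment joins with that of C2 to form the classical and lectin C3 convertase. The gene (Entrez 12268) lies at 34728139 to 34743902 on chromosome 17. C4b was low throughout, at 0.45, 0.24, 0.24, 0.36 and 0.30 in log2 in XXF F1 to F5, from 33, 15, 14, 27 and 22 reads, and at 1.36, 1.32, 1.64 and 1.19 in XYF F6 to F9, from 95, 139, 205 and 131 reads. In males it was at 0.28, 0.16, 0.24, 0.31 and 0.33 in XXM 2, 5, 6, 7 and 8, and at 0.25, 0.82, 0.42, 0.32 and 0.23 in XYM 12, 13, 15, 16 and 9, where reads ranged from 10 to 83. The 4 XYF mice lay above all other mice, with no overlap, and XYM 13 was the highest of the rest.

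XXF mice had less C4b than XYF mice, by a log2 difference of −1.06 (SE 0.12, limma adjusted p = 5.63e-05), and mean RPKM was 6.49-fold higher in XYF (1.61 against 0.249). It was the only 1 of the 8 genes called lower in XX females, where 101 of all genes were (0.712%), and 1 of 8 passed an unadjusted p of 0.05, as did 18.7% of all genes. C4b passed the filter on low values only through the 4 XYF mice and XYM 13, as every other mouse lay below an RPKM of 0.5. A low gene that passes in this way has to differ, so its passing the filter and its place among the 8 genes are no support for the difference. The C4b call held in all 30 alternatives, with adjusted p from 4.22e-06 to 0.00302, among them that without the filter (−1.06). Its size depended on the scale, reaching −2.69 with limma-voom on the recovered reads. Summed NK cell markers also separated these groups, at 388 to 522 RPKM in XXF and 83.1 to 238 RPKM in XYF. Neutrophil sums did so in the other direction, at 3957 to 5462 RPKM in XXF and 8150 to 57460 RPKM in XYF. The sums of the other marker lists overlapped. The part of these cell types in the C4b difference was not tested.

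In males C4b overlapped between XXM and XYM (log2 difference −0.14, SE 0.11, adjusted p = 0.391), and −0.038 remained without XYM 13. There, none of the 8 genes was called by limma in either direction, while 420 of all genes were (2.96%). 1 of 8, C3ar1, passed an unadjusted p of 0.05 in this comparison, as did 27.1% of all genes. With limma-voom 0 of 8 were called, and with array weights, or without XYM 15, C3 was called. The difference of the C4b effect between gonadal sexes was −0.92 (SE 0.16, adjusted p = 0.0503), and C4b was 1 of 12 genes called in that test (0.0846%). As C4b passed the filter only through the XYF mice and XYM 13, its place among these 12 is no support for the call. That call was lost without XXF F1, F2, F4 or F5 (adjusted p = 0.105, 0.103, 0.114 and 0.131), without XYF F6 (0.133), without XXM 6 (0.122), and without XYM 12 or 16 (0.141 and 0.131). It was also lost with a pseudocount of 0.1 (−1.88, adjusted p = 0.133), limma-voom (−2.11, adjusted p = 0.13) and an adjusted p threshold of 0.05, the range over all alternatives being 0.0066 to 0.141 and that of the difference −2.11 to −0.81.

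Over both gonadal sexes C4b was lower in XX mice by −0.60 (SE 0.08, adjusted p = 0.000387, from 0.000126 to 0.00161 over the alternatives), and was the 1 of 8 called lower, against 1.21% of all genes. Here too its passing the filter and its place among the 8 are no support for the difference. Without XYF F8 or XYM 13 the difference was −0.56 or −0.55, short of the fold threshold. In males against females it was −0.51 (SE 0.08, adjusted p = 0.000281, from 3.7e-05 to 0.00131 over the alternatives), which passed the adjusted p but not the fold threshold. Mean RPKM was 3.13-fold higher in females (0.855 against 0.272), through the XYF mice alone (1.61), as the XXF mean was 0.249. The difference between males and females was called with a pseudocount of 0.5 (−0.72) or 0.1 (−1.14) and with limma-voom (−1.35).

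C4b has a close copy, C4a, and 1842 of the 5329 windows of 51 bases in its longest RefSeq transcript (34.6%) also occurred in a C4a transcript, so reads from these stretches cannot be assigned with certainty by sequence, and the values of both genes are uncertain to that extent. C4a did not pass the filter, with 1 to 30 reads per mouse. Its level was 0.16 ± 0.11 (SD) in XXF, 0.27 ± 0.03 in XYF, 0.27 ± 0.09 in XXM and 0.27 ± 0.07 in XYM, and all 4 XYF mice lay within the range of the males. The C4a mean was thus also lower in XXF than in XYF mice, with overlap (0.017 to 0.268 in XXF and 0.231 to 0.309 in XYF). Among the 19 other tested genes within 200 kb of C4b, none was called between XXF and XYF, with log2 differences from −0.39 to 0.31 and a median of −0.039. The genes most like C4b over the 19 mice were Pparg (r = 0.933, rho = 0.891), Nxpe5 (r = 0.882, rho = 0.607) and Clec4a1 (r = 0.874, rho = 0.849), and for Pparg r was 0.936 without XYF F6 and F8.

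**Figure D3:**
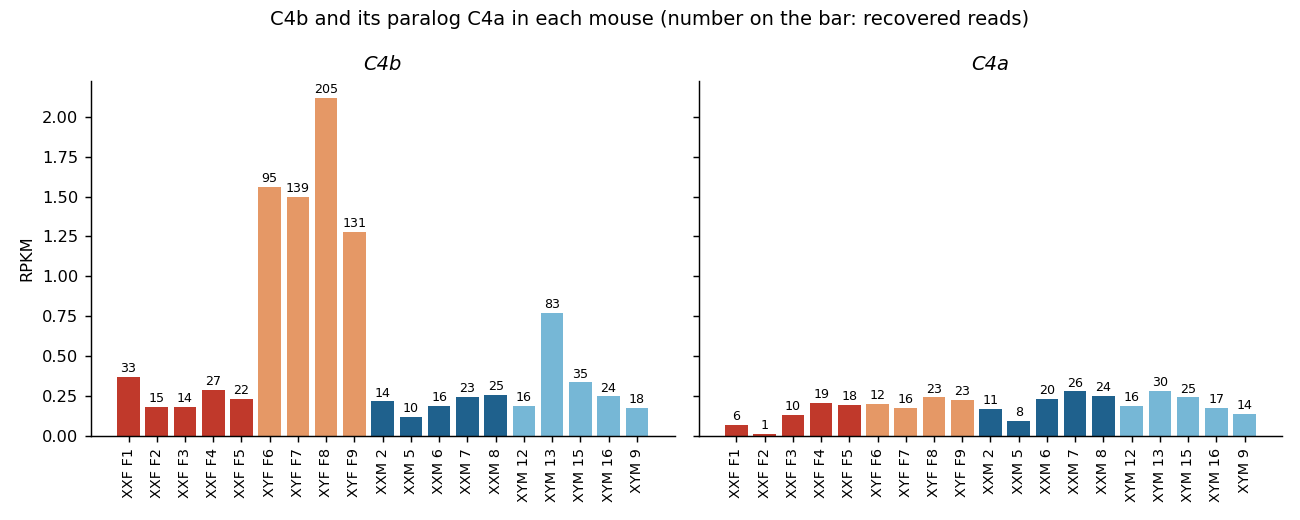
RPKM of C4b (left) and C4a (right) in each of the 19 mice, coloured by group, with the recovered reads written above each bar. The 4 XYF mice have 1.28 to 2.12 RPKM of C4b and all other mice at most 0.771 RPKM, while C4a stays at or below 0.28 RPKM in every mouse.

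Cfb encodes factor B, the protease of the alternative C3 convertase, and lies on chromosome 17 at 34856374 to 34862514 (Entrez 14962). Its levels were 2.73, 2.38, 1.82, 2.42 and 2.52 in XXF F1 to F5 and 2.47, 3.15, 2.72 and 2.44 in XYF F6 to F9. In XXM 2, 5, 6, 7 and 8 they were 1.87, 1.87, 1.42, 1.80 and 1.98, and in XYM 12, 13, 15, 16 and 9 they were 2.24, 2.20, 2.25, 2.38 and 1.61. The 5 XXM mice, XYM 9 and XXF F3 were the lowest, and the sexes overlapped, with 3 of 10 males below every female. In males the difference against females was −0.58 (SE 0.13, adjusted p = 0.00473), just short of the fold threshold, and mean RPKM was 1.64-fold higher in females (4.88 against 2.97). The difference passed that threshold with median ratio rescaling (−0.59), array weights (−0.60), limma-voom (−0.75), and a pseudocount of 0.1 (−0.72) or 0.5 (−0.64). It also passed without XXF F3 (−0.65), XYF F6 (−0.61), XYF F9 (−0.62), XXM 2 (−0.59), XXM 5 (−0.59), XXM 8 (−0.60), XYM 12 (−0.59), XYM 15 (−0.59) or XYM 16 (−0.61), with adjusted p from 0.000692 to 0.0102 over the alternatives. XX mice had lower means than XY mice in females (−0.32, SE 0.19, adjusted p = 0.368) and in males (−0.35, SE 0.18, adjusted p = 0.218), neither past the threshold.

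Cfb and C4b varied together over the 19 mice (r = 0.636, rho = 0.719, permutation p = 0.00302 and 0.0009, adjusted p = 0.0121 and 0.0063), and r was 0.624 without XYF F6 and F8. On deviations from the group means r was 0.300 (permutation p = 0.273, adjusted p = 0.478), so the relation was not found within groups. Cfb also varied with C1qb (r = 0.705, rho = 0.665, permutation p = 0.00073 and 0.00264, adjusted p = 0.0042 and 0.0148), which fell to 0.515 without XYF F7 and XYM 9 and to 0.410 on deviations (permutation p = 0.128, adjusted p = 0.384). The genes most like Cfb were the interferon-induced Ifi44 (r = 0.868, rho = 0.821) and Zbp1 (r = 0.857, rho = 0.900), and Adgrg5 (r = 0.856, rho = 0.809). Cfb is known to be induced by interferons, and of 13 interferon response genes 7 were called lower in males (5.36% of all genes were), among them Isg15 (−1.66, SE 0.23, adjusted p = 0.000132), Rsad2 (−1.47, SE 0.33, adjusted p = 0.00408), Ifit1 (−1.05, SE 0.13, adjusted p = 3.55e-05) and Gbp2 (−0.74, SE 0.12, adjusted p = 0.000373). The other genes called were Cxcl9, Oasl2 and Irf7, and the median of the list was −0.68. Males and females did not overlap for Isg15, Ifit1 and Gbp2, for which no share over all genes is given. Array weights called 5, with Oasl2 (−0.56) and Irf7 (−0.56) short of the fold threshold, and without XYF F9 and XYM 9 together 6 were called, with Irf7 short of it (−0.58). Between XX and XY mice 1 of the 13 was called over both gonadal sexes, Oasl2 (−0.66), lost without XYF F9 (−0.53), XXM 2 (−0.58) or XYM 13 (−0.62). Whether this response had a part in the Cfb difference was not tested.

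C3 encodes the central component on which all complement pathways meet, and lies on chromosome 17 at 57203967 to 57228136 (Entrez 12266). It was at 4.47, 3.34, 3.63, 4.09 and 3.95 in XXF F1 to F5 and at 4.10, 4.52, 3.93 and 6.79 in XYF F6 to F9. The male values were 3.16, 3.45, 4.17, 4.22 and 4.09 in XXM 2, 5, 6, 7 and 8, and 4.23, 5.02, 3.28, 4.59 and 6.82 in XYM 12, 13, 15, 16 and 9. XYF F9 and XYM 9, with 110 and 112 RPKM from 10708 and 10984 reads, stood far above the other mice, none of which passed 31.4 RPKM, and XX and XY mice overlapped in both gonadal sexes. The SD was 0.43 in XXF and 0.48 in XXM but 1.32 in XYF and 1.31 in XYM.

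The C3 means were lower in XX mice by −0.94 in females (SE 0.59, adjusted p = 0.387), by −0.97 in males (SE 0.55, adjusted p = 0.256) and by −0.95 over both (SE 0.40, adjusted p = 0.173), and none of these passed the threshold. In females the difference was −0.29 without XYF F9, and in males −0.46 without XYM 9. Without both mice, chosen after their values were seen, it was −0.37 over both gonadal sexes (SE 0.23, adjusted p = 0.476). Without XYM 15 the difference became −1.34 in males (adjusted p = 0.093) and −1.14 over both (adjusted p = 0.0739), and both were then called, as was the difference in males with array weights (−0.83, adjusted p = 0.0799). Adjusted p ranged from 0.0799 to 0.517 in males and from 0.0739 to 0.476 over both among the alternatives. The mean of males minus females was close to 0 (−0.064, SE 0.40, adjusted p = 0.919), and the sign turned to 0.26 without XYF F9. The genes most like C3 over the 19 mice were Sort1 (r = 0.979, rho = 0.930), G6pdx (r = 0.977, rho = 0.932) and Adgrg3 (r = 0.976, rho = 0.875), with r of 0.948, 0.918 and 0.894 without XYF F9 and XYM 9.

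C5ar1 encodes the receptor for C5a, a chemoattractant fragment, and is typical of neutrophils and monocytes. The gene (Entrez 12273) lies on chromosome 7 at 16246743 to 16259540. It was at 3.31, 3.20, 3.70, 3.19 and 3.22 in XXF F1 to F5 and at 3.37, 3.98, 2.80 and 5.50 in XYF F6 to F9. In XXM 2, 5, 6, 7 and 8 it was at 3.02, 3.35, 3.52, 3.43 and 3.37, and in XYM 12, 13, 15, 16 and 9 at 2.27, 3.68, 2.54, 2.88 and 5.17. The same mice as for C3, XYF F9 and XYM 9, were the highest, the XX mice lay close together, and the XY mice spread to both sides of them. No difference passed the threshold. XXF minus XYF was −0.59 (SE 0.50, adjusted p = 0.524), or −0.059 without XYF F9 and −0.96 without XYF F8, and XXM minus XYM was 0.03 (SE 0.47, adjusted p = 0.972), or 0.50 without XYM 9. Males minus females was −0.29 (SE 0.34, adjusted p = 0.535), −0.53 without XYM 9 and −0.03 without XYF F9. The genes most like C5ar1 were Gsr (r = 0.983, rho = 0.949), Hdc (r = 0.977, rho = 0.884) and Mmp9 (r = 0.970, rho = 0.898).

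C3 and C5ar1 varied together (r = 0.825, permutation p = 0.00075, adjusted p = 0.0042; rho = 0.511, permutation p = 0.0275, adjusted p = 0.0921). On deviations from the group means r was 0.896 (permutation p = 0.00087, adjusted p = 0.00609) and rho 0.782 (permutation p = 0.00075, adjusted p = 0.00525). Without XYF F9 and XYM 9, the 2 mice farthest from the median of C3, r was 0.308 (permutation p = 0.23, adjusted p = 0.468) on values and 0.569 (permutation p = 0.0507, adjusted p = 0.311) on deviations, where rho was 0.623 (permutation p = 0.0154, adjusted p = 0.107). On values the relation rested largely on these 2 mice, and on deviations it was weaker without them. Of the 28 pairs of the 8 genes, 9 had an adjusted p under 0.05, all positive, and 4 on deviations.

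The same mice had the most neutrophil RNA. All 12 genes of the neutrophil list were tested, among them the granule genes Elane, Mpo, Ltf and Camp, and none was at 0 in every mouse. The summed level was 4773, 3957, 5462, 5213 and 4550 RPKM in XXF F1 to F5, 13321, 16926, 8150 and 57460 RPKM in XYF F6 to F9, 6777, 5820, 7688, 5139 and 4558 RPKM in XXM 2, 5, 6, 7 and 8, and 3272, 9591, 4170, 4064 and 59469 RPKM in XYM 12, 13, 15, 16 and 9. The 4 XYF mice were above all XXF mice, and XYF F9 and XYM 9 far above all others, with S100a9 the most abundant gene (41.1% of the sum). All 12 genes had negative differences in XXF against XYF mice, with a median log2 difference of −1.90, and 10 of 12 in XXM against XYM mice, with a median of −0.41. In males the sums did not follow this direction in most mice, as 3 of 5 XYM mice lay below every XXM mouse. Limma called 0 of the 12 in females, where 8 of 12 passed an unadjusted p of 0.05 (18.7% of all genes), limma-voom called 0 and array weights 3. There the count became 8 without XYM 9, 6 without XYF F8, 3 without XYF F7 and 1 without XYM 12. In males limma called 0 of 12, as did limma-voom and array weights, and 0 of 12 passed an unadjusted p of 0.05 (27.1% of all genes). Over both gonadal sexes all 12 had negative differences (44.3% of all genes did), with a median of −1.15, and 7 of 12 passed an unadjusted p of 0.05 (22.8% of all genes). Of the 12, 2 were called lower in XX mice, Elane (−1.47) and Mpo (−1.70), beside 1.21% of all genes. That count became 0 without XYF F9 and with an adjusted p threshold of 0.05, and 6 without XYM 15 and with array weights. It was 4 without XYF F7, 3 without XYF F8, and 1, Mpo, with limma-voom, without the filter, and without XXF F2, F3, F4 or F5, XYF F6, XXM 2, 5, 7 or 8, or XYM 13. Monocyte markers, led by Lyz2, were also highest in these mice, with sums of 3836 RPKM in XYF F9 and 3677 RPKM in XYM 9 against at most 1913 RPKM elsewhere. Of the 8 monocyte genes 2 were called lower in XX mice in each comparison, Cd300e (−1.56) and Nr4a1 (−0.72) in females (0.712% of all genes), Cd300e (−1.56) and Ly6c2 (−0.79) in males (2.96% in either direction), and Cd300e and Ly6c2 over both (1.21%). XX and XY mice did not overlap for Cd300e in either gonadal sex, the XY mice other than XYF F9 and XYM 9 included. Its call in females was nevertheless lost without XYF F9. In females the count became 1, Nr4a1, without XYF F9 and 3, with Ly6c2, without XYM 9. In males it became 1, Cd300e, with limma-voom and without XXF F2, F4 or F5, XYF F6 or F8, any of the 5 XXM mice, or XYM 12, 13, 16 or 9. Of the liver list, Serpina1a and Fgb were at 0 in every mouse and 2 of 7 genes were tested, with Trf making up 99.2% of its sum (39.3 to 177 RPKM). The part of neutrophils and monocytes in the C3 and C5ar1 values was not tested.

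**Figure D4:**
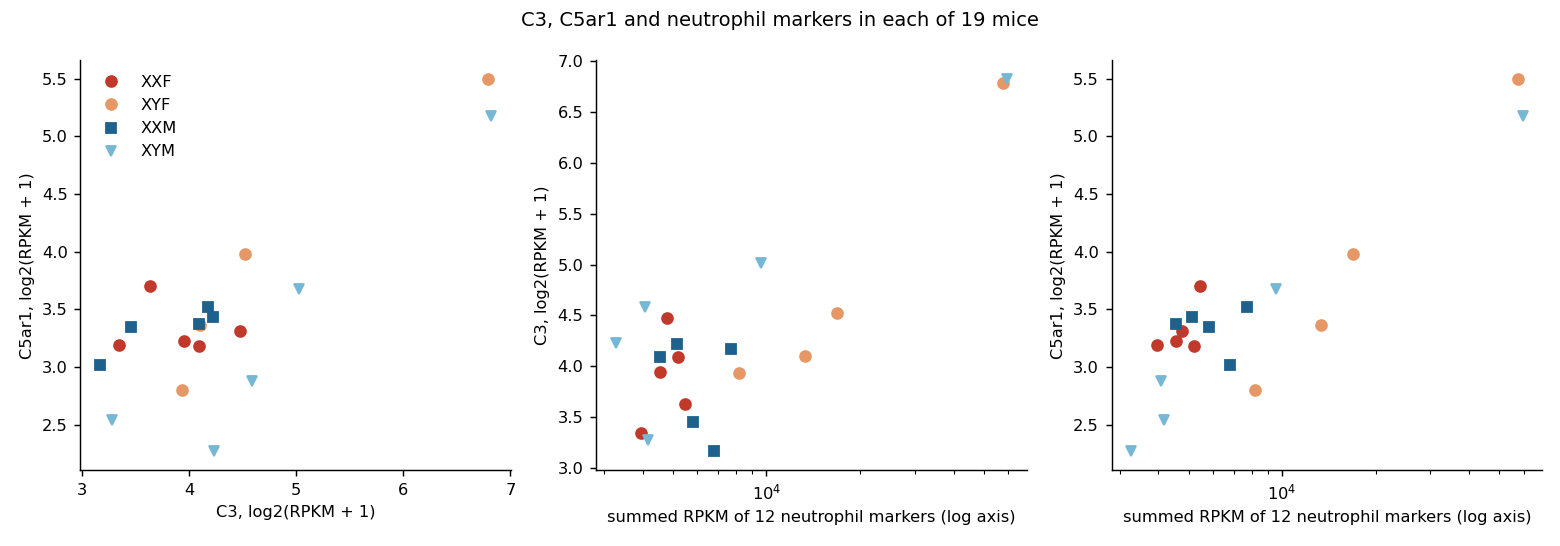
C5ar1 against C3 (left), and C3 (middle) and C5ar1 (right) against the summed RPKM of 12 neutrophil markers on a log axis, each point a mouse and each shape and colour a group. XYF F9 and XYM 9 lie apart at the top right of every panel, with sums of 57460 and 59469 RPKM.

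C3ar1 encodes the receptor for C3a and lies on chromosome 6 at 122847140 to 122856157 (Entrez 12267). It was near the detection filter in all groups, from 12 to 55 reads per mouse and 0.195 to 0.825 RPKM. The level was 0.59 ± 0.15 (SD, n = 5) in XXF, 0.62 ± 0.21 (n = 4) in XYF, 0.74 ± 0.09 (n = 5) in XXM and 0.48 ± 0.16 (n = 5) in XYM. In males 4 of 5 XXM mice lay above all XYM mice, and XXM minus XYM was 0.26 (SE 0.10, adjusted p = 0.129, from 0.109 to 0.294 over the alternatives) that did not pass the threshold. XXF minus XYF was −0.033 (SE 0.11, adjusted p = 0.888), turning to 0.015 without XXF F3 and 0.016 without XYF F7, and the difference of these effects was −0.30 (SE 0.15, adjusted p = 0.261). Males and females differed by 0.0057 (SE 0.08, adjusted p = 0.962), which turned negative without XXF F3, XYF F6, XXM 2, XYM 13 or XYM 16, to −0.045 at the lowest. The genes most like C3ar1 were Snora7a (r = 0.761, rho = 0.763) and Dlgap4 (r = 0.715, rho = 0.607), and without XYF F6 and XYM 9 these r were 0.618 and 0.495.

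Beyond these 8 genes, 50 other complement genes were listed by role, of which 24 passed the filter. In males against females 4 were called lower (5.36% of all genes were) and 2 higher (1.96%), with a median log2 difference of −0.076 over the 24. C6, a part of the membrane attack complex, differed by −0.90 (SE 0.17, adjusted p = 0.00138), and 10 of 10 males lay below all females. Cd59a, which blocks that complex, differed by −0.80 (SE 0.24, adjusted p = 0.0186). Cfp, the X-linked gene for properdin, which stabilizes the alternative convertase, differed by −0.69 (SE 0.14, adjusted p = 0.00255), or −0.55 and short of the threshold without XYF F7. Fcna, a ficolin of the lectin pathway, differed by −0.64 (SE 0.23, adjusted p = 0.0456), and fell short without XYF F7 (−0.42, adjusted p = 0.0846), XXM 5 (−0.57, adjusted p = 0.0801) or XYM 9 (−0.56, adjusted p = 0.0672) and with array weights (−0.58, adjusted p = 0.0299), its adjusted p ranging from 0.0209 to 0.0846 over the alternatives. Higher in males were Cd55, which speeds the decay of C3 convertases (0.75, SE 0.11, adjusted p = 0.000228, 10 of 10 males above all females), and Cr2, the receptor for C3 fragments on B cells and follicular dendritic cells (0.70, SE 0.10, adjusted p = 0.000145). Cr2 was higher where the B cell markers above were higher, and the part of B cells in it was not tested.

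Cr2 was also the only other complement gene called between XX and XY females (0.79, SE 0.15, adjusted p = 0.013, up to 0.105 with the 2 groups fitted alone), higher in 5 of 5 XXF mice than in any XYF mouse, where 0.670% of all genes were called higher. B cell markers also had positive differences in this comparison for 8 of 8 genes, with a median of 0.45, and their part in it was not tested. The Cr2 group levels were 6.93 ± 0.17 (SD) in XXF, 6.14 ± 0.36 in XYF, 7.43 ± 0.16 in XXM and 7.05 ± 0.18 in XYM, and in males 5 of 5 XXM mice were likewise above all XYM mice (0.39, SE 0.14, adjusted p = 0.111). The Cr2 effects of females and males differed by 0.40 (SE 0.20, adjusted p = 0.255). Without XYF F7 Itgax was called beside it in females, and without XYF F8 or XYM 9 Fcnb was, which made 2 each. Over both gonadal sexes 2 were called, Cr2 higher in XX mice (0.59, SE 0.10, adjusted p = 0.00331, beside 0.515% of all genes called higher) and Fcnb, a ficolin of neutrophil granules and monocytes, lower (−1.38, SE 0.45, adjusted p = 0.099). Cr2 missed the fold threshold without XXF F1 (0.56), XXF F4 (0.58), XYF F6 (0.57), XYF F9 (0.52), XXM 2 (0.58), XXM 5 (0.57), XXM 6 (0.57) or XYM 9 (0.55), without XYF F9 and XYM 9 together (0.48), and with median ratio rescaling (0.55) or array weights (0.50). Fcnb missed the adjusted p threshold without XXF F2 (adjusted p = 0.166), XXF F3 (0.136), XXF F4 (0.128), XXF F5 (0.141), XYF F6 (0.109), XYF F9 (0.224), XXM 2 (0.158), XXM 5 (0.164), XXM 6 (0.106), XXM 7 (0.12), XXM 8 (0.113), XYM 13 (0.154), XYM 16 (0.116) or XYM 9 (0.114), its range over the alternatives being 0.0494 to 0.224. Counts without a mouse ran from 0 (without XXF F4, XYF F9, XXM 2, XXM 5 or XXM 6) to 4 without XYF F7, which added Fcna and Itgax, and Itgax was also called without XYF F6 or XYM 9. Fcnb was another gene whose groups did not overlap in females, at 2.65 ± 0.33 (SD) in XXF and 4.60 ± 1.53 in XYF (−1.94, SE 0.66, adjusted p = 0.156).

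In XX against XY males limma called 0 of the 24, while 5 of 24 passed an unadjusted p of 0.05 (27.1% of all genes did), limma-voom called 0 and array weights gave 3. Without XYF F7 or XYM 15 Fcna was called, and without XYM 9 Cd59a, 1 gene each. Cfp was higher in 5 of 5 XXM mice than in any XYM mouse (0.49, SE 0.20, adjusted p = 0.136). For the difference of the XX effect between gonadal sexes limma called 0 of 24, with 2 of 24 at an unadjusted p of 0.05 (21.0% of all genes), 0 with limma-voom and 1 with array weights. Without XXF F3, XYF F8 or XYM 15 Clu was called, 1 gene each, and without XYM 9 Cd59a and Clu were, making 2. Median log2 differences over the 24 were −0.069 in females, 0.050 in males, 0.018 over both gonadal sexes and −0.085 for the difference of effects.

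**Figure D5:**
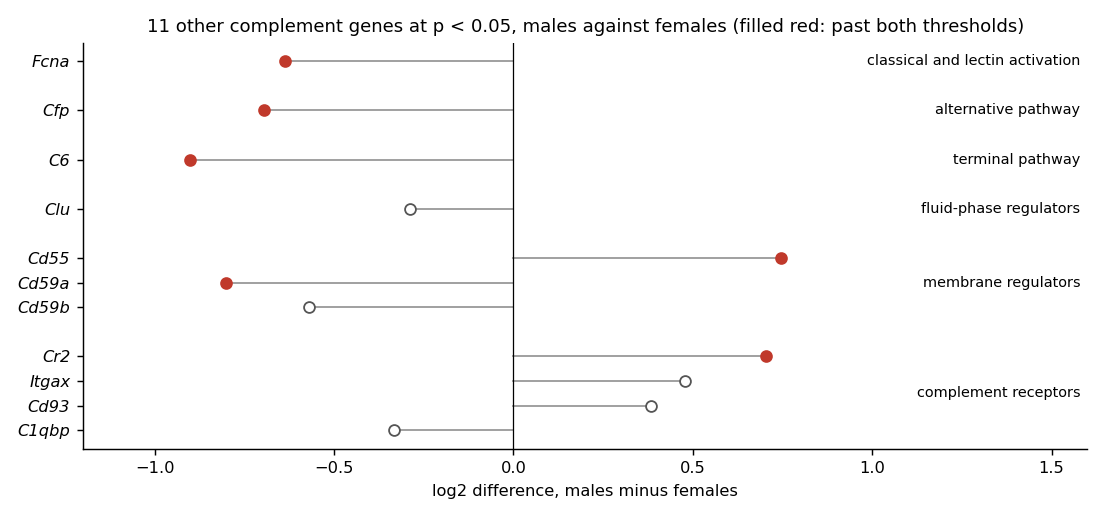
Log2 difference, males minus females, of those 11 of the 24 other tested complement genes that had an unadjusted p under 0.05, ordered by role. Filled red points passed both thresholds, C6, Cd59a, Cfp and Fcna below 0 and Cd55 and Cr2 above 0.

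Among receptors and membrane regulators Calr was at a mean of 262 RPKM, Itgb2, a chain of complement receptors 3 and 4, at 164 RPKM, Cr2 at 127 RPKM, Cd55 at 123 RPKM and Cr1l, a regulator of C3 convertases, at 43.0 RPKM. Among activators and soluble proteins Fcna stood at 88.6 RPKM, Cfp at 85.4 RPKM, Fcnb at 21.5 RPKM, C6 at 8.60 RPKM and Clu, a soluble regulator, at 7.70 RPKM, whereas Cfd, the protease that activates factor B (0.929 RPKM), and C8g (0.577 RPKM) were near the filter. Of the listed genes, 4 of 14 for classical and lectin activation, 2 of 2 of the alternative pathway, 2 of 7 of the terminal pathway, 2 of 10 fluid-phase regulators, 6 of 8 membrane regulators and 8 of 9 receptors were tested. The lectins Mbl1 and Mbl2 and the terminal component C8b were listed at 0 in every mouse.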

How the data were processed

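The deposited values are log2(RPKM + 1), which the authors made from read counts per gene (Subread alignment to mm10, featureCounts; versions not given), and a gene without reads is listed at 0.0001. Whole reads were recovered from these values for 21317 of 21317 genes with a read, within 0.05 of a whole read, where exon lengths of 904 genes gave the scale. Library sizes recovered from the same values ranged from 11263753 to 19962022 reads, with a median of 17391536. The sample labels name a NEBNext Ultra library kit and the publication a KAPA stranded kit, and which was used is not known. Among 36 pairs of mice of the same group none were duplicates (highest r 0.9903, lowest mean chi-square per gene 20.7).

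Tests on the 14186 genes that reached an RPKM of 0.5 in 4 or more mice were made by limma 3.58.1 (lmFit, contrasts.fit, eBayes with trend) on the deposited values, with 4 group means and 5 comparisons, and genes were called at a Benjamini-Hochberg adjusted p under 0.1 and a difference over 1.5-fold. The 8 genes and the lists (6 lists of other complement genes, 15 marker lists and an interferon response list) were chosen with earlier results of these data known. Genes of the lists were named where called, where groups did not overlap or where most abundant, and other named genes were chosen after their values were seen. Correlations used 2-sided permutation tests with 100000 draws. The results were computed again with a pseudocount of 0.1 or 0.5, without the filter on low values, with it raised to an RPKM of 1, with an adjusted p of 0.05, without the fold threshold, with median ratio rescaling, with array weights, with the 2 compared groups alone and with each mouse left out. Chosen after seeing the data were limma-voom on the recovered reads and leaving out XYF F9 and XYM 9 together. Median ratio rescaling moved the median of all genes by less than 0.1 in each comparison (in XX against XY females from 0.062 to 0.0034). Recovered reads cover counting error only. Software was R 4.3.3 and Python 3.11.15 with matplotlib 3.10.9, scipy 1.17.1, pandas 2.3.3 and numpy 2.4.6.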

Additional observations from a re-analysis of the deposited data

Results flagged for a closer look

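In 5 of 44 groups of values examined, 1 mouse lay far from the others of its group. The groups came from the 8 genes and the summed markers of red pulp macrophages, monocytes and neutrophils only. A chance rate of about 1 in 20 groups cannot be set against this count, because the same mice recur and the C1q subunits varied together. XYM 9 was the mouse in every case but C5ar1. The limit was higher for the 4 XYF mice, and the neutrophil sum of XYF F9 (57460 RPKM) fell just short of it. Cfb was at 1.61 in log2 in XYM 9, below the other XYM mice, and C5ar1 was at 3.70 in log2 in XXF F3, above the other XXF mice. XYM 9 also lay apart from the other XYM mice in the summed markers of red pulp macrophages (340 RPKM, the lowest), monocytes (3677 RPKM, the highest) and neutrophils (59469 RPKM, the highest). The XX effect on C4b differed between gonadal sexes by −0.92 in log2 for females minus males (adjusted p = 0.0503), the only 1 of the 8 genes that passed that test, but the call was lost in 11 of 29 alternatives, with adjusted p from 0.0066 to 0.141. C4b passed the filter on low values only through mice in which it was high, so its place among the 8 is no support for the call.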

How the results depend on the processing

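Of 1171 alternative values of the 40 member differences, 1116 kept their direction and 1081 also their side of the threshold, 13 no longer passed it, 22 newly passed it and 55 reversed (45 of them from leaving out 1 mouse), and 0 of the 6 called differences reversed. Of the 8 genes, array weights called 1 in males. In males against females 5 were called with no fold threshold, a pseudocount of 0.1 or 0.5, or limma-voom. For the XX effect in females minus males 0 were called with an adjusted p of 0.05, a pseudocount of 0.1 or limma-voom. Leaving out 1 mouse gave 0 to 1 in males, 0 to 2 over both gonadal sexes and 0 to 1 for the difference of effects. Of the other complement genes, the 2 compared groups alone gave 0 in females, and array weights 3 in males and 1 for the difference of effects. Over both gonadal sexes an adjusted p of 0.05, no filter and limma-voom gave 1 each and median ratio rescaling 0. No fold threshold gave 11 in males against females. Without XYF F9 and XYM 9 there were 2 in females, 1 in males and 1 over both. Leaving out 1 mouse gave 1 to 2 in females, 0 to 1 in males, 0 to 4 over both and 0 to 2 for the difference of effects. Correlated pairs numbered 4 without the 2 mice farthest from the median. Reversed log2 differences were −0.003 for C3ar1 in males against females, −0.035 for C3 and −0.032 for Cfb in the difference of effects with median ratio rescaling, −0.26 for C1qb in males and 0.14 for C3 in males against females with array weights, and −0.043 for C3ar1 in males against females with limma-voom. Without XYF F9 and XYM 9 they were −0.14 for C1qb in males, −0.018 for C1qa and 0.22 for C5ar1 over both, and 0.0073 for C3 in males against females. With 1 mouse left out the ranges that crossed 0 were, in females, −0.37 to 0.16 for C1qa, −0.54 to 0.024 for C1qb, −0.43 to 0.074 for C1qc and −0.13 to 0.016 for C3ar1. In males they were −0.14 to 0.24 for C1qb and −0.23 to 0.50 for C5ar1, and over both −0.25 to 0.027 for C1qb and −0.11 to 0.14 for C1qc. In males against females they were −0.32 to 0.26 for C3 and −0.045 to 0.034 for C3ar1, and for the difference of effects −0.48 to 0.68 for C3 and −0.066 to 0.18 for Cfb. The cause was not tested. The low reads of C4b (10 to 205) and C3ar1 (12 to 55) limit their precision. No paired analysis was possible because no label pairs mice between groups.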

Other observations

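Marker lists not described above gave the following medians of log2 differences in males against females. Marginal zone macrophages had a median of 0.020 (5 of 5 genes tested, 3 positive and 2 called; most abundant Tgm2, at −0.82), dendritic cells 0.48 (8 of 8 tested, 6 positive, 4 called higher and 2 lower), plasma cells 0.15 (6 of 6 tested, 4 positive and 1 called; most abundant Jchain, at −0.09), endothelial cells 0.12 (5 of 7 tested, 3 positive; Pecam1) and platelets −0.33 (5 of 5 tested, 5 negative; Ppbp). Of all genes 5.36% were called lower in males and 1.96% higher. Limma called 0 of the endothelial and 0 of the platelet genes, with 1 and 2 at an unadjusted p of 0.05 (41.7% of all genes), 0 each with array weights, and 1 and 0 with limma-voom. Of the dendritic cell list Cd8a, the most abundant gene (52.9% of the sum), and Itgae were those called lower, by −1.35 and −0.87, and without XYF F6 or XXM 6 3 were called higher. Of the stromal and reticular list 1 of 13 genes was tested, with a difference of −0.23, sums of 0.573 to 1.61 RPKM, and Ccl21a at 0 in every mouse. Of the pancreas list 3 of 7 were tested, with a median of 0.0081 and sums of 0.254 to 3.85 RPKM. NK cell markers had a median of 0.98 between XX and XY mice over both gonadal sexes, with 6 of 6 genes positive and 5 called higher in XX (0.515% of all genes), or 4 without XYM 9 (sums of 388 to 522 RPKM in XXF, 83.1 to 238 RPKM in XYF, 311 to 375 RPKM in XXM and 60.3 to 278 RPKM in XYM; most abundant Gzma). The part of these cell types in the complement values was not tested.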
